A study of Rattus norvegicus with 138 samples.

Results

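The serum small RNA libraries of rats carrying nickel (Ni) pellets numbered 12 of the 106 libraries that the series holds at these months, with 4 each at 1, 3 and 6 mo after implantation; the series' other 32 libraries are from 12 mo, where Ni has no group. They were picked by the metal and month in their labels and compared with the 11 tantalum (Ta) libraries of the same months, 4 at 1 mo, 4 at 3 mo and 3 at 6 mo. All animals were male Sprague-Dawley rats, 3 months old at surgery, each with 2 pellets in the gastrocnemius (calf) muscle of each hind limb, 4 in all. Ta went through the same surgery and is the inert metal control, so both groups carried foreign metal and no rat without an implant was compared here. The other 7 metals of the series (W, Co, Fe, Cu, Al, Pb and DU, depleted uranium) add 83 libraries at these months. The series text gives 8 rats a group, the labels number the libraries of a group from 1, and which rats these were is not said, so every p below measures the spread between libraries.

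Nickel is a transition metal that corrodes slowly in tissue, and its salts are known carcinogens. Nickel ions are also known to stabilise the hypoxia-inducible transcription factors in cultured cells. A microRNA (miRNA) is a short RNA that represses messenger RNAs through its seed, bases 2 to 8. Some miRNAs are nearly restricted to striated muscle (the myomiRs, such as miR-1, miR-133 and miR-206), and they reach serum when muscle fibres are damaged, just as miR-451 and miR-16 come with red cells and miR-122 with liver cells.

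The mature sequences of the miRNAs that the results turn on are printed here 5′ to 3′ from RefSeq (build GRCr8), with the seed in capitals; 434 of the 471 miRNAs in the table had an entry. The first set shows how close the muscle miRNAs are to each other, because reads of close copies can be counted for the wrong one.
miR-1-3p: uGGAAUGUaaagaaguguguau
miR-1b: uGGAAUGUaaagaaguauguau
miR-206-3p: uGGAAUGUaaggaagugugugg
miR-133a-3p: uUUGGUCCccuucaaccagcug
miR-133b-3p: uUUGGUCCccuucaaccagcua
miR-499-5p: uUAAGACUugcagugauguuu
Counted from the 5′ end, miR-1b differs from miR-1-3p by the change G17A alone, and miR-133b-3p from miR-133a-3p by G22A, the last base. The change from miR-1-3p to miR-206-3p takes A11G, A21G and U22G, and all 3 share the seed GGAAUGU.

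The second set holds the miRNAs whose 3 mo differences came from near-empty libraries, those that led at 6 mo and the hypoxia miRNA miR-210-3p. The leading miR-30d-5p, miR-99a-5p and miR-124-3p are given by name.
miR-451-5p: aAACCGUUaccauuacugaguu
miR-16-5p: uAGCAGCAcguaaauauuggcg
miR-26a-5p: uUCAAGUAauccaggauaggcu
miR-199a-3p: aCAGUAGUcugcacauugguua
miR-30a-5p: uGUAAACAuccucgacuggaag
miR-9a-5p: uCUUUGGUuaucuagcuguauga
miR-184: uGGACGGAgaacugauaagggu
miR-100-5p: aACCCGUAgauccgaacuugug
miR-423-5p: uGAGGGGCagagagcgagacuuuu
miR-210-3p: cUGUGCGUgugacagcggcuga
None of these 10 shares its seed with another of the set. Among the 434 miRNAs with an entry, miR-16-5p has 4 others of its seed, miR-30a-5p has 2, miR-26a-5p and miR-100-5p have 1 each, and the other 6 have none. Relatives without an entry, such as miR-30d-5p and miR-99a-5p, are not in these numbers.

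Library totals ran from 577692 to 2441924 counts in Ni and from 316852 to 539673 in Ta at 1 mo, where every Ni library was deeper (exact two-sided permutation p = 0.0286, the smallest that 70 arrangements allow). Totals overlapped at 6 mo, at 771540 to 1661406 in Ni and 720097 to 1354321 in Ta. At 3 mo, Ni replicate 3 held 3343 counts and Ta replicate 3 held 1645, and these 2 near-empty libraries (under 20000 counts) are left out wherever a result is given without them. Fits given without near-empty libraries also leave out those of the other metals. The whole table holds 6 such libraries, these 2 among them, so the number tested and the SEs can change with them too. The rest of the 3 mo totals reached 1081700 in Ni and 2195682 in Ta. In 20000 counts, Ni libraries were expected to show on average 1.22 more miRNAs than Ta over the 3 months (exact permutation p = 0.905). The red-cell miRNAs miR-451-5p and miR-16-5p and the liver miRNAs miR-122-5p and miR-192-5p were counted in every Ni and Ta library.

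Between Ni and Ta, the highest serum levels of miR-1-3p, miR-1b, miR-206-3p and miR-133a-3p were in Ni libraries at each of the 3 months, but in some libraries and not in others, and no difference passed the main test. Other metals held libraries with more: the highest shares of counts were in an Al library for miR-1-3p (2.24%) and in an Fe library for miR-206-3p (3.34%). Levels are in CPM, counts scaled to a common library size with TMM factors, and libraries are listed in the order of their labelled replicate numbers. MiR-1-3p, which is made in skeletal and heart muscle, stood at 181, 46.9, 30.3 and 51.3 CPM in Ta and 22.1, 3077, 111 and 247 CPM in Ni at 1 mo. At 3 mo it stood at 0, 35.5, 0 and 346 CPM in Ta and 6043, 2062, 0 and 21.2 CPM in Ni, the zeros in both replicates 3 being near-empty libraries. At 6 mo the values were 494, 109 and 1471 CPM in Ta and 339, 5344, 49.9 and 3546 CPM in Ni. In each month 2 Ni libraries stood above all Ta libraries of that month and at least 1 stood below the highest of them, so the groups overlapped throughout. Averaged over the 3 months with equal weight, the model put miR-1-3p 3.18 ± 1.29 (SE) log2 units higher in Ni (edgeR adjusted p = 0.347), and 3.36 ± 1.37 without the near-empty libraries.

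MiR-1b stood at 326, 101, 68.1 and 55.6 CPM in Ta and 65.1, 3324, 76.6 and 299 CPM in Ni at 1 mo. At 3 mo its values were 0, 65.1, 0 and 343 CPM in Ta and 4262, 2271, 0 and 1379 CPM in Ni, and at 6 mo 676, 151 and 722 CPM in Ta and 71139, 9663, 6.57 and 3884 CPM in Ni. With the near-empty libraries left out, all Ni libraries were above all Ta libraries at 3 mo, and at 6 mo 3 of 4 were. The average difference was 3.99 ± 1.29 log2 units (adjusted p = 0.0980), and it was 3.05 without Ni replicate 2 of 1 mo and 3.41 without Ni replicate 1 of 6 mo.

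MiR-206-3p is the myomiR of skeletal muscle and of regenerating fibres. It stood at 1651, 213, 189 and 137 CPM in Ta and 69.5, 2771, 243 and 465 CPM in Ni at 1 mo, and at 2654, 1001, 0 and 550 CPM in Ta and 6264, 2007, 0 and 3777 CPM in Ni at 3 mo. At 6 mo the values were 726, 388 and 2854 CPM in Ta against 14194, 5405, 141 and 3119 CPM in Ni. The groups overlapped at every month, and the average difference of 1.29 ± 0.88 log2 units was within the error that the spread between libraries gives (adjusted p = 0.887).

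MiR-133a-3p, a partner of miR-1 in the same muscle transcripts, had no count in any Ta library at 1 or 3 mo. In Ni it stood at 0, 413, 7.29 and 15.1 CPM at 1 mo and at 80.6 CPM in replicate 2 alone at 3 mo. At 6 mo it stood at 92.9, 5.35 and 34.1 CPM in Ta and at 916, 1852, 0 and 403 CPM in Ni. It was thus counted in 7 of 12 Ni, 3 of 11 Ta and 33 of 83 libraries of the other metals. Against a floor of 3 counts over the Ta group, the Ni mean was at least 74.7-fold higher at 1 mo and at least 16.7-fold higher at 3 mo, both resting on few libraries. The average over months had an adjusted p of 0.0883, over a range of 4.49e-14 to 1.00 across the 30 alternatives run. The 1.00 came without Ni replicate 2 of 3 mo, which leaves no count in either group at that month. The edgeR fit then has no working test, so this value does not measure how far the result rests on that library.

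The rarer muscle miRNAs were counted in few libraries. MiR-133a-5p, the other strand of miR-133a, was counted at 1 mo in Ta and in no Ni library, and at 3 mo in neither group. At 6 mo it was counted in 2 of 4 Ni libraries (group mean 16.8 CPM) and in no Ta library. MiR-133b-3p was counted in Ni replicate 2 at 3 mo (137 CPM), in Ni replicates 1 and 2 at 6 mo (79.0 and 387 CPM) and in 1 Ta library at 6 mo (5.35 CPM). MiR-499-5p, which is encoded in a slow myosin gene, was at 0 in all 11 Ta libraries and stood at 153, 17.1 and 88.4 CPM in Ni replicates 2, 3 and 4 of 6 mo. MiR-208a-3p and miR-208b-3p, which lie in the cardiac myosin genes, were counted in no Ta library. MiR-208a-3p stood at 97.5 CPM in Ni replicate 2 of 3 mo and 1.92 CPM in Ni replicate 2 of 6 mo, the one Ni library with miR-208b-3p (9.59 CPM).

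A count was made of how many of miR-1-3p, miR-1b, miR-206-3p, miR-133a-3p, miR-133b-3p and miR-499-5p exceeded every Ta library of the month. It shows which Ni libraries were high in these 6 of the 11 measured members of the muscle list. In the Ni libraries of 1 mo the number was 0, 4, 1 and 2 of 6. It was 3, 4, 0 and 2 in those of 3 mo. Those of 6 mo had 4, 6, 1 and 5. The library numbered 2 had the highest number at each month and the library numbered 3 had at most 1. The 0 of number 3 at 3 mo is that of a near-empty library, too shallow to show these miRNAs. The labels do not say whether equal numbers mark the same rat. In Ni replicate 1 of 6 mo, miR-1b was at 71139 CPM while miR-1-3p was at 339 CPM, and in Ni replicate 4 of 3 mo they were at 1379 and 21.2 CPM. In Ni replicate 2 of 6 mo they were at 9663 and 5344 CPM. Since the pair differs at 1 base and the counting rule is not given in the sources used here, how reads were divided between them is uncertain.

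**Figure D1:**
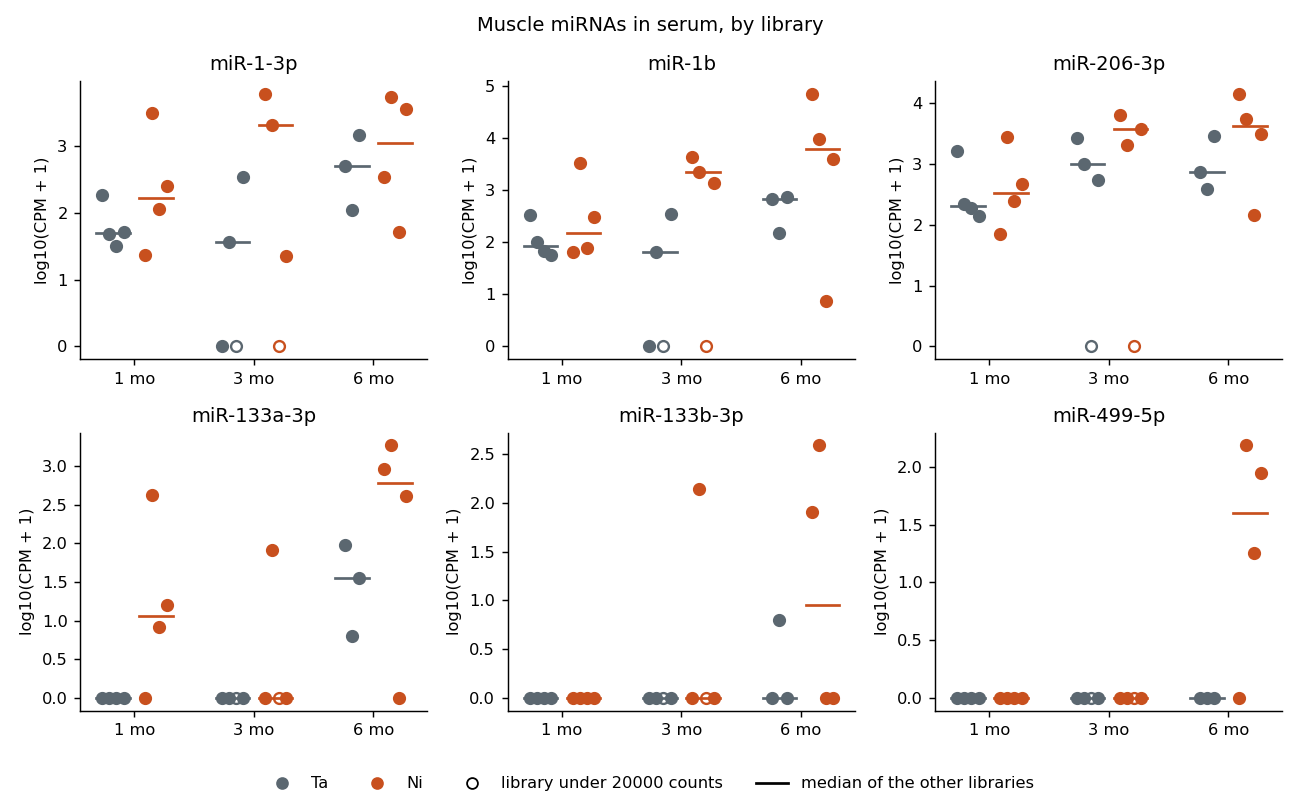
Levels of 6 muscle miRNAs in each Ta and Ni library at 1, 3 and 6 mo, as log10(CPM + 1); each point is a library, open points are libraries under 20000 counts and bars are medians of the others. In each panel the highest point is a Ni library, and the Ni points spread from at or near 0 to far above Ta.

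Of the 15 listed miRNAs of skeletal and cardiac muscle, 11 were in the table, and the main edgeR test called none at any month or in the average. Other settings called miR-1-3p, miR-1b, miR-133a-3p or miR-499-5p: DESeq2 called miR-133a-3p at 1 and 3 mo and miR-499-5p at 6 mo, voom called miR-499-5p at 6 mo, and the unfiltered edgeR fit called miR-1b at 1 and 6 mo. At 1 mo 5 of the 6 tested were higher in Ni, with a median log2 difference of 1.73 against 0.30 over all 270 miRNAs tested (0.81 against 0.16 with 7 tested, in the fit without near-empty libraries of other metals). At 3 mo 6 of 6 were higher without the near-empty libraries (median 3.93 against -0.02), and at 6 mo 9 of 9 (median 4.16 against 0.16). With members that had no count in 1 group set at their bound, the 3 mo median was 3.88 and the 6 mo median stayed at 4.16. In the average 9 of 10 tested were higher with a median of 3.09, and the 5 members with counts in all 6 groups had a median of 1.29. The members' summed level, to which the widely expressed miR-378a-3p gave 1396 to 4274 CPM in Ta at 1 mo, ran from 2638 to 13740 CPM in Ni and 3645 to 5205 CPM in Ta at 1 mo. It ran from 8681 to 18090 CPM against 1466 to 4369 CPM at 3 mo without the near-empty libraries, and from 2354 to 90550 CPM against 3828 to 9128 CPM at 6 mo. A higher serum level does not tell more damaged fibres from more RNA released per fibre.

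At 1 mo no miRNA was called between Ni and Ta (0 of 270, 0%), while 24 had an unadjusted p under 0.05 (8.89%), 18 of them higher in Ni; without near-empty libraries of other metals in the fit it was 21 of 289 (7.27%). DESeq2 and limma's voom called 3 each (1.11%): DESeq2 called miR-133a-3p, miR-196b-5p and miR-542-5p, and voom called miR-30d-5p, miR-3559-5p and miR-378b. With TMM scaling the median difference over all tested miRNAs was 0.30 log2 units, and with DESeq2's size factors (RLE) it was 0, so the 1 mo differences stand against that shift. At 3 mo these medians were -0.14 with TMM and -0.03 with RLE scaling, and at 6 mo 0.16 and 0.04. The smallest p belonged to miR-30d-5p, a member of the widely expressed miR-30 family. It stood at 1956, 782, 1245 and 1615 CPM in Ta and at 2669, 3822, 3213 and 3533 CPM in Ni. Every Ni library was above every Ta library, by 1.24 ± 0.37 log2 units with TMM and 0.84 with RLE scaling (adjusted p = 0.401).

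Its relative miR-30a-5p stood at 635, 676, 839 and 1333 CPM in Ta and 1542, 2618, 1616 and 1773 CPM in Ni, again without overlap (1.12 ± 0.46 log2 units). In miR-30c-5p the groups were apart as well, at 248 to 925 CPM in Ta and 1144 to 1731 CPM in Ni, and in miR-30e-5p they overlapped. MiR-152-3p stood at 363 to 932 CPM in Ta and 1215 to 1755 CPM in Ni (1.11 ± 0.43 log2 units). MiR-3559-5p was counted in 1 Ta library, at 19.9 CPM, and in all 4 Ni libraries at 91.6, 97.1, 106 and 31.9 CPM. Its adjusted p was 0.401, and without Ta replicate 2, the Ta library that held it, 0.00324, over a range of 0.0025 to 0.788 across its alternatives.

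Altogether 13 of 270 miRNAs had every Ni library above every Ta library at 1 mo (4.81%), and 1 the reverse (0.37%; 4.5% and 0.346% of the 289 tested without near-empty libraries), against a background in which every Ni library was also deeper. By size the first were miR-500-3p, miR-3559-5p, miR-542-3p and miR-194-5p, and the one below was miR-378b. Among the miRNAs lower in Ni, the abundant miR-192-5p of liver and kidney stood at 37845, 105210, 28751 and 102990 CPM in Ta and 13482, 32646, 29717 and 43876 CPM in Ni. The groups overlapped, and the difference of -1.20 ± 0.57 log2 units was not called (adjusted p = 0.547). MiR-127-3p was 2.31 ± 1.13 log2 units lower, with 1 Ta library at 817 CPM and the remaining Ni and Ta libraries between 12.1 and 101 CPM. MiR-674-5p and miR-18a-5p were counted in 1 Ta library each (28.2 and 27.0 CPM) and in no Ni library, and miR-124-3p in 1 of each, at 2556 CPM in Ta and 19.9 CPM in Ni.

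At 3 mo no miRNA was called (0 of 167, 0%), and 14 had an unadjusted p under 0.05 (8.38%), 12 of them lower in Ni. The leading ones were red-cell and tissue miRNAs that were extreme in 1 near-empty Ta library. MiR-451-5p, made from a red-cell precursor without Dicer, stood at 7793, 18930, 289390 and 9305 CPM in Ta and 6501, 7812, 2134 and 3035 CPM in Ni. MiR-16-5p stood at 759, 601, 187250 and 3196 CPM in Ta and 1201, 2207, 534 and 1435 CPM in Ni. In both, the near-empty Ta replicate 3 stood far above every other library, and it alone held most of the group's mean. The difference in miR-451-5p was -4.05 ± 1.26 log2 units and became -1.05 ± 1.17 without the near-empty libraries. That in miR-16-5p was -5.13 ± 1.84 and became 0.23 ± 1.98.

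MiR-26a-5p stood at 12953, 19644, 273140 and 22110 CPM in Ta and 7954, 13863, 5068 and 11353 CPM in Ni, and its difference went from -3.09 ± 0.98 to -0.69 ± 0.69 log2 units. MiR-199a-3p, of fibroblasts and platelets, stood at 3066, 1410, 71186 and 1162 CPM in Ta and 2257, 1052, 0 and 1570 CPM in Ni, and its difference went from -3.92 ± 1.51 to -0.19 ± 1.21. The near-empty Ni library acted the other way on miR-30d-5p. That miRNA stood at 9736, 10023, 5416 and 6121 CPM in Ta and 5547, 5987, 142450 and 10572 CPM in Ni, and its difference went from 2.38 ± 0.96 to -0.22 ± 0.66. MiR-451-5p and miR-26a-5p were called when Ta replicate 1, 2 or 4 was left out (2 each time), which gives Ta replicate 3 more weight, and with RLE scaling 4 were called, these 2 with miR-16-5p and miR-199a-3p. DESeq2 called 7 (4.19%) and voom 0 (0%).

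**Figure D2:**
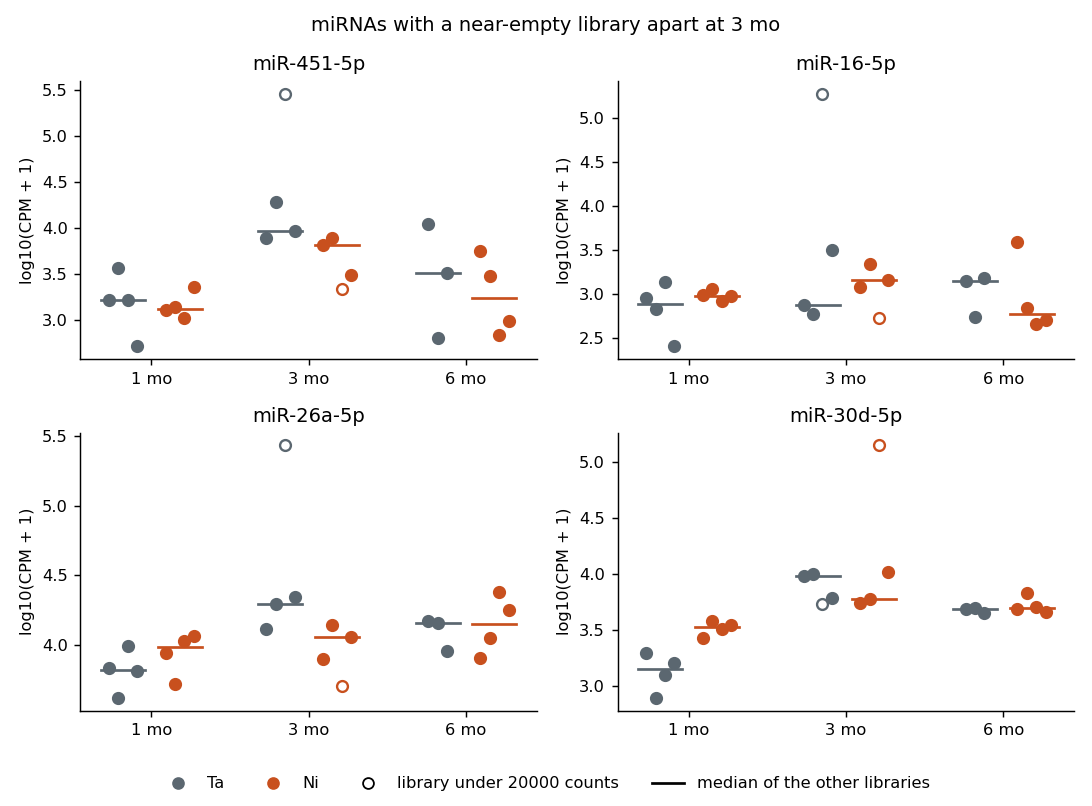
Levels of miR-451-5p, miR-16-5p, miR-26a-5p and miR-30d-5p in each Ta and Ni library by month, as log10(CPM + 1), with open points for libraries under 20000 counts and bars for medians of the others. At 3 mo the open Ta point lies far above all others in the first 3 panels, as does the open Ni point for miR-30d-5p.

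Without the near-empty libraries 0 of 180 miRNAs were called at 3 mo (0%) and 1 had an unadjusted p under 0.05 (0.556%). All Ni libraries were above all Ta libraries in 3 miRNAs (1.67%), namely miR-1b, miR-125a-5p and miR-187-5p, and below in 4 (2.22%), namely miR-143-3p, miR-146b-5p, miR-151-5p and miR-27a-5p. With them left in, the counts were 0 (0%) and 2 (1.2%). MiR-146b-5p, which is induced by inflammatory signalling, stood at 3010, 2745, 45652 and 3288 CPM in Ta and at 1568, 1695, 1601 and 1583 CPM in Ni. The third value of each group is from its near-empty library and rests on few counts. Its difference was -3.06 ± 1.41 log2 units, and -0.86 ± 1.43 without the near-empty libraries.

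MiR-181b-5p, a lymphocyte miRNA, was at 0 in all 4 Ni libraries at 3 mo and at 195 and 816 CPM in Ta replicates 2 and 4. Against the floor of 3 counts over the Ni group it was at least 164-fold lower in Ni, although 2 Ta libraries held none either. At 1 mo the ranges overlapped (195 to 396 CPM in Ni, 111 to 335 in Ta), as they did at 6 mo (28.6 to 389 and 283 to 765). The same pattern held for miR-676, at 0 in all Ni libraries and at 71.1 and 81.0 CPM in Ta replicates 2 and 4, at least 24.6-fold lower in Ni. MiR-450b-3p and miR-183-5p led the higher side through Ni replicate 2 alone, at 712 and 186 CPM, with all other Ni and Ta libraries of 3 mo at 0.

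At 6 mo, when both groups were deep and none was near-empty, no miRNA was called (0 of 272, 0%) and 10 had an unadjusted p under 0.05 (3.68%), 7 of them higher in Ni. DESeq2 called 4 (1.47%) and voom called 9 (3.31%), 6 higher and 3 lower. MiR-100-5p and miR-99a-5p, of the ancient miR-99 family that targets mTOR, stood out among abundant miRNAs. MiR-100-5p was at 6329, 6013 and 4764 CPM in Ta and at 24646, 56126, 5824 and 36799 CPM in Ni, so 3 of 4 Ni libraries were well above Ta and 1 was among them. MiR-99a-5p was at 12189, 8286 and 7948 CPM in Ta and at 25017, 25818, 32527 and 67345 CPM in Ni, without overlap. The differences were 2.44 ± 0.86 and 1.99 ± 0.80 log2 units (adjusted p = 0.739 each). The libraries of the other metals at 6 mo reached 36628 and 86996 CPM in the pair, with medians of 9409 and 23275 CPM.

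MiR-99b-5p, of the same seed family as miR-100-5p, was at 2959 to 4590 CPM in Ta and 6801 to 13799 CPM in Ni, likewise apart. MiR-199a-3p was at 200, 262 and 392 CPM in Ta and at 1757, 1470, 1113 and 1345 CPM in Ni, a difference of 2.32 ± 1.26 log2 units. Its Ta values at 6 mo were low beside the 911 CPM median of the other metals at that month. On the lower side, miR-423-5p, a common serum miRNA, was at 11663, 30114 and 7083 CPM in Ta and at 2897, 3296, 7735 and 2269 CPM in Ni. It differed by -2.01 ± 0.77 log2 units, and by -0.92 without Ta replicate 2, and 1 Ni library lay within the Ta range.

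Ni replicate 1 of 6 mo stood apart in miR-184, miR-9a-5p and miR-1b. MiR-184, known from eye and brain, was at 919, 190 and 851 CPM in Ta and at 107780, 95.9, 52.5 and 411 CPM in Ni. That library thus held 6.24% of its counts in miR-184, the highest share of the 132 libraries over 20000 counts, the next being 0.242% in an Al library. Without it the difference turned from 5.37 ± 2.44 to -1.81 log2 units. MiR-9a-5p, a miRNA of neurons and their precursors, was at 0 in all 3 Ta libraries and at 8815, 34.5, 0 and 50.5 CPM in Ni, again led by replicate 1 (0.51% of counts, the next library at 0.0776%). In that library miR-1b took 4.12% of counts (the next 1.41%). Other miRNAs of muscle and neurons checked by share of counts were not highest there, though several ranked near the top. Of the 132 libraries it ranked 8 in miR-133a-3p (0.053%, median 0%), 9 in miR-206-3p (0.821%, median 0.0629%) and 61 in miR-1-3p. It ranked 3 in miR-124-3p (0.125%, against 4.61% in an Fe library) and 3 in miR-7a-5p, and its miR-128-3p was below every Ta library. The brain miRNA miR-7a-5p was at 4142 CPM there, against 0 to 246 CPM in the other 3 Ni libraries and 52.8 to 134 in Ta.

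**Figure D3:**
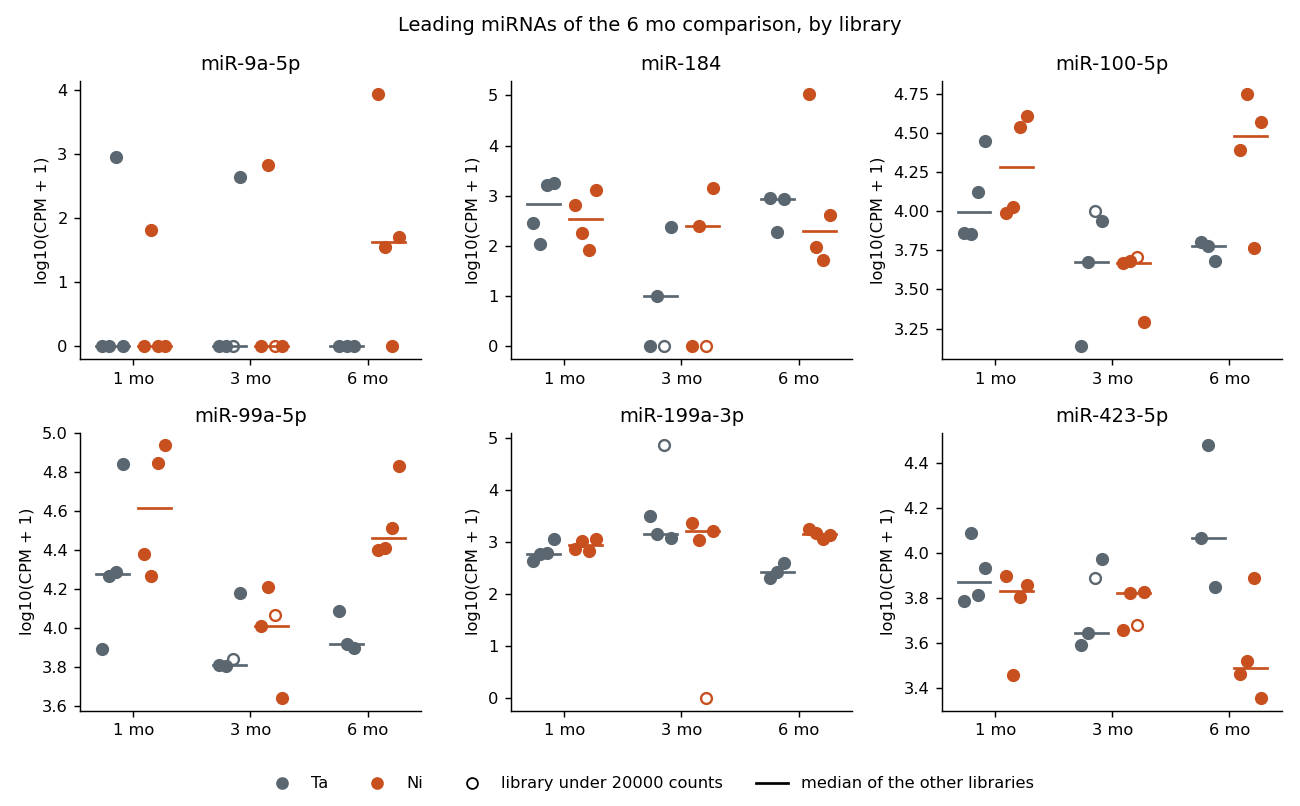
Levels of miR-9a-5p, miR-184, miR-100-5p, miR-99a-5p, miR-199a-3p and miR-423-5p in each Ta and Ni library by month, as log10(CPM + 1), with open points for libraries under 20000 counts and bars for medians of the others. At 6 mo miR-99a-5p and miR-199a-3p have every Ni point above every Ta point, and in miR-9a-5p and miR-184 a single Ni library lies far above the rest.

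All Ni libraries were above all Ta libraries at 6 mo in 17 of 272 miRNAs (6.25%) and below in 11 (4.04%). The largest by log2 difference among the first were miR-429, miR-210-3p, miR-195-5p and miR-204-5p, and among the second miR-23a-5p, miR-200c-3p, miR-139-3p and miR-150-3p. MiR-210-3p, the most widely used marker of hypoxic cells, was counted in all 4 Ni libraries of 6 mo at 43.7, 26.9, 3.94 and 5.05 CPM and in none of the 3 Ta libraries. Over a floor of 3 counts in the Ta group the Ni mean was at least 22.3-fold higher. The edgeR adjusted p was 0.739 and voom's 0.0127. At the same month it was counted in 1 of 27 libraries of the other metals, at 17.4 CPM, although their median total was 1361752 counts. At 1 mo it was counted in 2 of 4 Ni libraries (5.52 and 11.7 CPM), 1 of 4 Ta libraries (5.04 CPM) and 5 of 28 of the other metals, and at 3 mo in no library of any metal. All of these levels rest on few counts.

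MiR-429, of the epithelial miR-200 family, was likewise at 0 in Ta at 6 mo and at 82.2, 26.9, 6.57 and 21.9 CPM in Ni, at least 38.6-fold higher. It was counted in 5 of 27 libraries of the other metals. The epithelium list as a whole did not follow it. Of its 9 members tested at 6 mo, 4 were higher and 5 lower in Ni, with a median of -0.30 log2 units. MiR-200c-3p of the same family was below Ta in every Ni library (-2.74 log2 units). MiR-31a-5p was at 0 in Ta and at 285, 12.5, 0 and 38.7 CPM in Ni. MiR-19a-3p went the other way, with 67.3 CPM in 2 of 3 Ta libraries and none in Ni, at least 59.1-fold lower. The minor miRNAs miR-1306-3p, miR-1224 and miR-191b were each counted in 1 Ta library of 6 mo, at 26.4, 26.7 and 43.7 CPM, and in no Ni library.

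Averaged over the 3 months, no miRNA was called (0 of 320, 0%). An unadjusted p under 0.05 was found for 28 (8.75%), 13 higher and 15 lower in Ni, and for 22 of 326 (6.75%) without the near-empty libraries. Some miRNAs tested, such as miR-133b-3p, miR-499-5p and miR-210-3p, had no count in either group at some month. Without the near-empty libraries their edgeR SEs were 6489, 7830 and 5397 log2 units, with p near 1. For such miRNAs the average was no working test. They stay among those tested, so they lower these shares and raise the adjusted p of the others. The smallest adjusted p was 0.0731, shared by miR-451-5p, miR-30d-5p, miR-181b-5p, miR-3074 and miR-434-5p. DESeq2 called 35 (10.9%), 17 higher and 18 lower and voom called 0 (0%). Fitted to the Ni and Ta libraries alone, edgeR called 3: miR-1b and miR-133a-3p higher and miR-181b-5p lower in Ni (adjusted p = 0.0203 each). With no filter on low counts it called 7, all higher in Ni, among them miR-1-3p, miR-1b, miR-133a-3p, miR-30d-5p and miR-10a-5p.

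Some of these averages depended on the near-empty libraries and others did not. MiR-451-5p went from -2.19 ± 0.61 to -0.84 ± 0.55 log2 units without these libraries, miR-26a-5p from -1.17 ± 0.38 to -0.03 ± 0.33, and miR-16-5p from -1.96 ± 0.72 to 0.20 ± 0.68. MiR-146b-5p went from -1.42 ± 0.60 to -0.43 ± 0.58. On the higher side, miR-30d-5p went from 1.502 ± 0.44 to 0.34 ± 0.29 and miR-30a-5p from 1.21 ± 0.52 to 0.47 ± 0.39. MiR-1b, miR-1-3p and miR-423-5p (-0.995 ± 0.39 and -0.82 ± 0.38) moved by less than their own errors.

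The remaining leaders of the average were rare. MiR-434-5p, of the imprinted Dlk1-Dio3 locus, was counted in 5 of 12 Ni libraries, none of 11 Ta libraries and 6 of 83 of the other metals, at 21.9 to 227 CPM in Ni. MiR-3074 was counted in 4 of 12 Ni, 0 of 11 Ta and 18 of 83 other libraries, and miR-17-2-3p in 6 of 12, 1 of 11 and 20 of 83. MiR-130b-5p had counts in 3 Ni libraries (2.63 to 6.68 CPM), against 6 of the Ta libraries at 5.04 to 131 CPM. A miRNA with groups at 0 has a fitted log2 value that depends on the model's prior, so the counts of libraries are the measurement here.

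**Figure D4:**
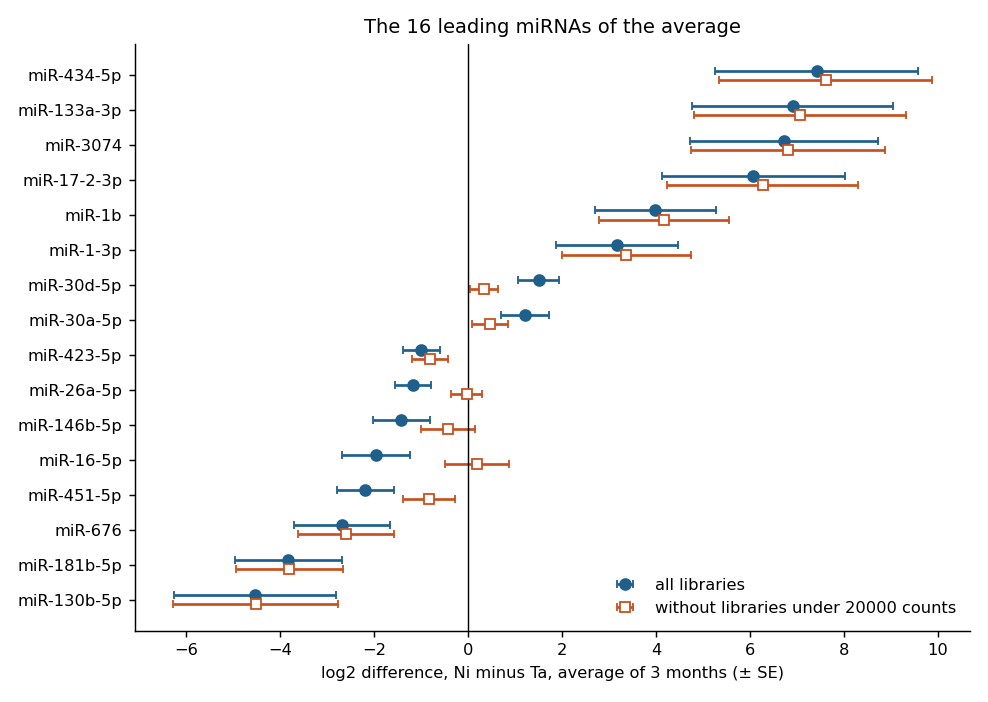
Fitted log2 difference Ni minus Ta averaged over 1, 3 and 6 mo, with SE bars, for the 8 miRNAs with the smallest p in each direction, in all libraries (filled) and without those under 20000 counts (open). MiR-30d-5p, miR-26a-5p, miR-16-5p and miR-451-5p move toward 0 without the near-empty libraries; the values of miR-434-5p, miR-133a-3p, miR-3074, miR-17-2-3p, miR-676, miR-181b-5p and miR-130b-5p include groups with no count and depend on the model's prior.

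The test of whether the Ni against Ta difference changed between months called 2 of 320 miRNAs (0.625%), miR-26a-5p (adjusted p = 0.00713) and miR-199a-3p (adjusted p = 0.0177). Relative to 1 mo, the difference in miR-26a-5p changed by -4.07 log2 units at 3 mo and -0.06 at 6 mo. In miR-199a-3p it changed by -5.06 at 3 mo and by 2.08 at 6 mo. Neither was called without the near-empty libraries (0 of 326, 0%), where the 3 mo changes were -1.10 and -0.52 and the 6 mo change in miR-199a-3p was 2.03. Both calls ended when any 1 of these was left out: Ta replicate 3 or Ni replicate 1, 2 or 4 of 3 mo, or Ta replicate 1 or 3 of 6 mo; without Ni replicate 3 of 3 mo miR-26a-5p was still called. With no low-count filter the 2 calls were instead miR-9a-5p and miR-124-3p. An unadjusted p under 0.05 was found for 29 miRNAs (9.06%), and for 18 (5.52%) without the near-empty libraries.

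Against the mean of the other 7 metals over the same months, Ni differed in 23 of 320 miRNAs (7.19%), all higher in Ni, and in 21 of 326 (6.44%) without the near-empty libraries. This comparison uses no Ta library. As in the average, miRNAs with no count at some month stay among those tested with a p near 1. MiR-210-3p is one, with an SE of 9076 log2 units without the near-empty libraries. The strongest were miR-9a-5p, miR-434-5p, miR-200b-5p, miR-184, miR-17-2-3p, miR-124-3p, miR-29b-3p and miR-3074. Few libraries stood behind most of them. MiR-9a-5p was counted in 5 of 12 Ni libraries and 5 of 83 of the other metals, where it reached 156 CPM against 8815 CPM in Ni. MiR-200b-5p was counted in 6 of 12 and 26 of 83, and miR-124-3p in 5 of 12 and 11 of 83, with its highest level, 29584 CPM, in another metal. MiR-184 was counted in 10 of 12 and 60 of 83, and miR-29b-3p, a fibrosis miRNA that represses collagens, in 11 of 12 and 54 of 83.

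The direction of this comparison depended on how the other metals entered it. With their libraries pooled as 1 group a month, a choice made after the data were seen, 9 miRNAs were called (2.81%), 4 higher and 5 lower in Ni. The 4 higher were miR-9a-5p, miR-434-5p, miR-200b-5p and miR-184, which were called both ways, and the median over all tested miRNAs moved from 0.28 to -0.52 log2 units. Without Ni replicate 1 of 6 mo the calls of miR-184 and miR-7a-5p were lost. Without Ni replicate 2 of 3 mo 12 calls were left, and those of miR-9a-5p, miR-434-5p and miR-200b-5p were lost, as was that of miR-9a-5p without Ni replicate 2 of 1 mo. Over all settings the log2 value was at least 5.56 in miR-9a-5p and 3.56 in miR-434-5p. Where the library left out held a month's only Ni counts, the fit returns a p near 1. A call lost in that way does not measure dependence on the library.

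The listed red-cell miRNAs were lower in Ni serum at 6 mo as a sum, to which miR-92a-3p gave much of the Ta level. The main edgeR test called no member (voom called miR-92a-3p). The 12 listed members summed to 7332 to 18900 CPM in Ni and 19710 to 27110 CPM in Ta, without overlap. Of these, 8 were lower and 4 higher, with a median of -1.03 log2 units against 0.16 over all miRNAs tested. MiR-92a-3p was at 8574, 16335 and 15703 CPM in Ta and at 5327, 3094, 4158 and 1017 CPM in Ni, while miR-451-5p overlapped (11113, 622 and 3223 CPM in Ta, 5541, 3003, 677 and 962 in Ni). The other named red-cell miRNA, miR-16-5p, did not go lower in Ni (0.26 ± 1.31 log2 units). At 1 mo the sums overlapped, at 10590 to 14170 CPM in Ni and 5294 to 19000 CPM in Ta. At 3 mo they overlapped too, at 21340 to 37150 and 31720 to 44420 CPM, apart from the near-empty Ta library at 482800 CPM. Red-cell miRNAs in serum also move with haemolysis at sampling, whose part in these values was not tested. A sum apart at 6 mo was not particular to the red-cell list. The hypoxia list (58870 to 80270 CPM in Ni, 41900 to 58460 CPM in Ta) was apart too, higher in Ni. So was the endothelium list (57280 to 75780 CPM in Ni, 31310 to 49550 CPM in Ta).

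Lists tied to hypoxia, inflammation and fibrosis, responses that an embedded metal could call up, held no member called by the main edgeR test at any month (directions are with TMM scaling). Members were called in other settings, among them miR-210-3p and miR-9a-5p at 6 mo with voom, miR-146a-5p and miR-146b-5p at 3 mo with DESeq2, and miR-26a-5p and miR-199a-3p at 3 mo with RLE scaling. Of the hypoxia list 6 of 7 tested were higher at 6 mo with a median of 0.58 log2 units against 0.16 over all, and 6 of 8 were higher at 1 mo (0.37 against 0.30). Of the fibrosis list 9 of 9 were higher at 6 mo (0.54), 8 of 9 at 1 mo (0.41) and 2 of 8 at 3 mo without the near-empty libraries (-0.38 against -0.02). The inflammation list had medians of 0.30 at 1 mo, -0.40 at 3 mo without the near-empty libraries and 0.34 at 6 mo. Every member named in these lists can come from many tissues, and several stand in more than 1 list.

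Single response miRNAs were not called by the main test. The average difference was 0.14 ± 0.45 log2 units in miR-21-5p, which is raised in injury and fibrosis, -1.10 ± 0.59 in the inflammation brake miR-146a-5p, and -0.36 ± 0.64 in the myeloid miR-223-3p. MiR-155-5p, of activated immune cells, differed by 0.57 ± 1.45, and miR-122-5p of hepatocytes by 0.16 ± 0.50, with no adjusted p under 0.587. For miR-146a-5p the value without the near-empty libraries was -0.26 ± 0.55, Ta replicate 3 of 3 mo having stood at 55711 CPM. MiR-34a-5p, a target of p53, was counted in no Ni library and in 2 of 11 Ta libraries (170 and 17.6 CPM). MiR-486, fixed as a member of the muscle list, was not analysed here.

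**Figure D5:**
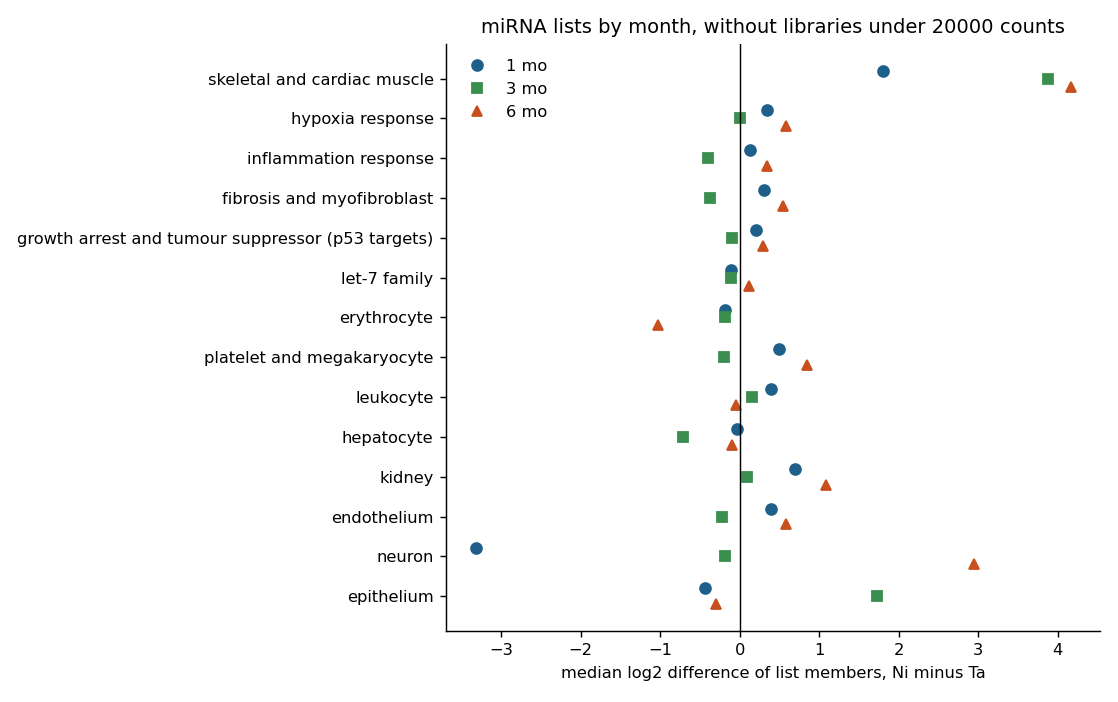
Median log2 difference Ni minus Ta of the tested members of 14 miRNA lists at 1, 3 and 6 mo, without libraries under 20000 counts and with members at 0 in 1 group set at a bound from 3 counts. The muscle list lies at 3.88 at 3 mo and 4.16 at 6 mo, most other lists lie within about 1 log2 unit of 0, and the neuron points rest on few tested members.

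In the remaining lists the medians lay on both sides of that of all miRNAs, which was 0.16 at 6 mo. The hepatocyte list had a median of -0.09 log2 units at 6 mo, the leukocyte list -0.05, the let-7 family 0.12, the endothelium list 0.58 and the platelet list 0.84. The kidney list, which shares members with the miR-30 family, had 8 of 9 higher at 1 mo (0.85) and 7 of 9 at 6 mo (1.09). The neuron list had 1 to 6 members tested a month with all libraries, and medians at the bound of -3.44 at 1 mo and 2.95 at 6 mo. Without libraries under 20000 counts the list had 7 members tested at 1 mo and a median at the bound of -3.32. At 6 mo its summed level was 13180 CPM in the Ni library with the most and 558.8 CPM in the one with the least, against 5444 to 9154 CPM in Ta. Its most abundant member, miR-128-3p, was lower in every Ni library (2057, 1730, 2604 and 508 CPM) than in Ta (6983, 9154 and 5417 CPM), by 2.06 ± 1.45 log2 units. MiR-9a-3p, miR-137-3p, miR-219a-5p and miR-132-3p were at 0 in Ta at that month.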

How the data were processed

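Small RNA from rat serum was sequenced, and the authors deposited 1 table of raw counts of 471 mature miRNAs in 138 libraries. The build Rnor_6.0 is named, per the submitters' processing notes, without its role; how reads were aligned and counted, and against which miRBase version, is not given in the sources used here. The values are whole counts as deposited, so edgeR 4.0.16 quasi-likelihood tests (R 4.3.3) were the main tests.

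Low counts were filtered with filterByExpr (minimum count 10, minimum total 15) and libraries scaled by TMM. Each month was fitted with all libraries of that month and 1 mean a metal; the average, the change between months and the comparison with the other 7 metals used all 138 libraries in 35 groups. A miRNA was called at a Benjamini-Hochberg adjusted p under 0.05. SEs are the log2 value over the root of F. CPM values come from the same TMM factors. Bounds use 3 counts over a group, and intervals of this kind cover counting error only.

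The text names, in each direction, the miRNAs of smallest p (8 in the average, 5 a month), up to 8 called in the test of change and against the other metals, a set given in any case, members of described lists, and up to 4 a direction without overlap. The members and lists were chosen with earlier results of these data known. MiR-7a-5p, miR-30c-5p, miR-30e-5p and miR-99b-5p values were added beside related results after their values were seen.

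Alternatives were RLE size factors, no filter, DESeq2 1.42.0, voom with quality weights (limma 3.58.1), a replicate block, the Ni and Ta libraries alone, each library left out, and no libraries under 20000 counts. Pooling the other metals, and leaving out libraries in the last 2 comparisons, were added after seeing the data. The scripts were tested on simulated data.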

Additional observations from a re-analysis of the deposited data

Results flagged for a closer look

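Some libraries lay far from the others of their group in single values, by the gap to the nearest library over the group's range. Such values numbered 19 in 73 sets of 4 values checked, and several came from the same library. Independent, normally spread values would pass the cut about 1 time in 20. The sets were unlogged levels of chosen miRNAs that share libraries, so that rate does not apply to them. At 1 mo, Ni replicate 2 was apart in miR-1-3p (3077 CPM, group median 179), miR-1b (3324 CPM, median 188), miR-206-3p (2771 CPM, median 354) and miR-122-5p (40384 CPM, median 13894). Ta replicate 1 was apart at 1 mo in the same muscle miRNAs at lower levels, with miR-1-3p at 181 CPM, miR-1b at 326 CPM and miR-206-3p at 1651 CPM. Without Ni replicate 2 of 1 mo, the difference in miR-1-3p averaged over the 3 months went from 3.18 to 2.15 log2 units.

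At 3 mo the near-empty Ta replicate 3 was apart in miR-451-5p (289390 CPM), miR-16-5p (187250 CPM), miR-146a-5p (55711 CPM), miR-26a-5p (273140 CPM) and miR-199a-3p (71186 CPM). The near-empty Ni replicate 3 was apart in miR-30d-5p (142450 CPM). Ta replicate 2 was apart in miR-122-5p (153990 CPM, median 18495), Ni replicate 4 was low in miR-100-5p (1957 CPM, median 4724), and Ta replicate 4 had the largest total (2195700 counts, rounded). At 6 mo, Ni replicate 1 was apart in miR-184 (107780 CPM, median 254), miR-1b (71139 CPM, median 6774) and miR-16-5p (3907 CPM, median 608).

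The Ni against Ta difference changed between months in miR-26a-5p (edgeR adjusted p = 0.00713) and miR-199a-3p (adjusted p = 0.0177), and both calls ended without the near-empty libraries.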

How the results depend on the processing

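The main analysis called no miRNA between Ni and Ta at any month or in the average, and this count depended on the tool. With no low-count filter, DESeq2 and voom, 1 mo had 6, 3 and 3 calls. The same settings gave 3, 7 and 0 for 3 mo, 3, 4 and 9 for 6 mo, and 7, 35 and 0 for the average. RLE scaling gave 4 at 3 mo, and the Ni and Ta libraries alone gave 3 in the average. Leaving out 1 library gave 0 to 1 calls for 1 mo (miR-3559-5p without Ta replicate 2), 0 to 2 for 3 mo, 0 for 6 mo, 0 to 1 for the average (miR-30d-5p without Ni replicate 2 of 3 mo), 0 to 3 against 2 in the test of change and 12 to 23 against 23 for the other metals. The 2 calls of change became 0 without the near-empty libraries, and the other metals pooled gave 9. With fewer than 20000 counts a library shows few miRNAs, which limits 3 mo most. The cause of the other shifts was not tested.

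With the replicate number as a block, 0 miRNAs were called at each month and in the average. The labels do not say whether the numbers pair the libraries. Same-numbered Ni and Ta deviations correlated at -0.132 to 0.435, with the highest value in the 2 near-empty libraries. Without values for differently numbered libraries beside them, these correlations cannot settle it.

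Signs turned as follows. With 1 library left out, miR-124-3p at 1 mo ran from -12.63 to 5.73 (without Ta replicate 3), a value that depends on the model's prior. At 3 mo miR-30d-5p was -0.22 without the near-empty libraries, -0.15 with voom and -0.24 without Ni replicate 3 (to 3.00 without replicate 2), and miR-16-5p was 0.23 without the near-empty libraries. MiR-184 at 6 mo ran from -1.81 without Ni replicate 1 to 5.88. In the average, miR-16-5p was 0.20 and miR-199a-3p 0.79 without the near-empty libraries, 0.10 and 0.57 without Ta replicate 3 of 3 mo (down to -2.10 and -0.98 without replicate 1), and miR-199a-3p was 0.80 with voom. MiR-122-5p was -0.10 without Ni replicate 4 of 3 mo and -0.19 without Ni replicate 2 of 1 mo, with 0.64 as its highest. MiR-155-5p was -0.20 with voom, -2.08 without Ni replicate 2 of 3 mo and -1.33 without Ni replicate 2 of 6 mo, with 3.13 as its highest. Of all single-miRNA comparisons with an alternative, 1299 kept direction and side of the threshold, 51 passed it newly, 30 no longer passed it and 16 turned. At a single month, alternatives that left no count in either group gave no value. In the average and against the other metals, edgeR fits with such an empty month gave a p near 1 that tests nothing.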
